A study of Mus musculus with 18 samples.

Results

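Toll-like receptors are the innate immune sensors through which brain macrophages detect microbial molecules and debris, and 9 genes of that system were followed here across sorted microglia and leptomeningeal macrophages of transplanted mice. The genes were taken by symbol from a list of 10: the receptors Tlr1, Tlr2, Tlr3, Tlr4, Tlr7, Tlr9 and Tlr13, the lipopolysaccharide co-receptor Cd14, the MD-1 gene Ly86 and the adaptor Myd88. All but Tlr9 were among the 13043 genes of the table, so 9 were analysed, and all 9 passed the filter on low counts. Of the receptors, TLR1, TLR2 and TLR4 sit at the cell surface and sense bacterial lipopeptides and lipopolysaccharide, while TLR3, TLR7 and TLR13 sit in endosomes and sense double-stranded RNA, single-stranded RNA and bacterial ribosomal RNA. MyD88 carries the signal of all of these except TLR3, which uses TRIF, the product of Ticam1. In the brain, microglia are known as the main cells that carry these receptors.

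The animals were irradiated wild-type C57BL/6 mice that had received bone marrow from donors with Ms4a3-Cre, a Cre-dependent R26-TdTomato reporter and a Cx3cr1-gfp allele. Host microglia had no colour. Monocyte-derived cells carried GFP and TdTomato, because Ms4a3-Cre is active in granulocyte-monocyte progenitors. HSC-derived cells (from haematopoietic stem cells by another route) carried GFP alone. All libraries were made 32 weeks after transplantation from at most 100000 sorted cells each. Each of the 3 microglia groups (host, monocyte-derived and HSC-derived) had 4 libraries, as had monocyte-derived leptomeningeal macrophages, and there were 2 libraries of HSC-derived leptomeningeal macrophages. A warm collagenase step released the leptomeningeal cells first, and microglia were taken from the tissue that remained after a further digestion, with Actinomycin D in the preparation. Compartment and isolation step therefore cannot be told apart. Donor cells alone carried the Cx3cr1-gfp allele and host cells alone had been in the animal during irradiation, so in every comparison with host microglia origin, donor genotype and irradiation cannot be told apart. Mouse sex, and whether replicates are separate mice or pools, are not given in the labels, and p-values therefore measure only the spread between these samples.

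Library totals ran from 154727 to 2440234 molecules, and a count of 3 corresponded to between 1.23 and 19.4 CPM (the count scaled to library size) before TMM scaling, which all CPM below carry. The shallowest libraries were HSC-derived leptomeningeal replicate 2 and HSC-derived microglia replicates 3 and 4. In the latter pair, ribosomal protein genes took 12.8% and 12.2% of counts, against 7.83% and 8.01% in replicates 1 and 2 of the same group. The summed level of 10 microglial markers was between 19790 and 22710 CPM in host microglia, between 9737 and 11870 CPM in donor-derived microglia and between 2973 and 5000 CPM in leptomeningeal macrophages. The 10 markers of border-associated macrophages summed to between 60.7 and 71.6 CPM in host microglia, where Lyve1 was at 0, to between 2394 and 3284 CPM in donor-derived microglia and to between 6284 and 12470 CPM in leptomeningeal macrophages. The donor-derived cells labelled microglia thus carried markers of both lists. These are bulk samples, in which fewer cells of a type and less RNA per cell cannot be told apart.

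RefSeq (GRCm38.p6) gave promoter windows for 7 of the 10 listed genes. The 250 bases before the RefSeq start are printed for the receptors and the adaptor that differed between host and donor-derived microglia, 5′ to 3′ on the gene's strand, so that the genes which moved together can be read beside those which moved apart. By the GENCODE gene positions given below, the Tlr3 and Myd88 windows lie wholly inside the gene. The Tlr1 and Tlr2 windows lie partly inside it. Motifs were searched on both strands, and matches to 3 of them are in capitals. These are GAGGAA, the core bound by the macrophage factor PU.1, then GAAA, any 2 bases and GAAA again (an interferon-stimulated response element core), and GGG followed by any 2 bases and TTTCC (a narrow form of the NF-kB site).
Tlr1 (chr5:64933559-64933808, minus strand): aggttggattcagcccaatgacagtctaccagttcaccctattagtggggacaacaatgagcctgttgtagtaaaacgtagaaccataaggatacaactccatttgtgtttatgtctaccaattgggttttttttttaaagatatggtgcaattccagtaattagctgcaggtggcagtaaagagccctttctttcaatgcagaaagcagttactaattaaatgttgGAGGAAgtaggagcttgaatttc
Tlr2 (chr3:83841609-83841858, minus strand): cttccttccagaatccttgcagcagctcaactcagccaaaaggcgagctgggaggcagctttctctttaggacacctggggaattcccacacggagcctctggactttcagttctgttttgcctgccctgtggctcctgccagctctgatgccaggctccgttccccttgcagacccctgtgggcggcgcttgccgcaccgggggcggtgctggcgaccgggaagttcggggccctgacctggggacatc
Tlr3 (chr8:45410381-45410630, minus strand): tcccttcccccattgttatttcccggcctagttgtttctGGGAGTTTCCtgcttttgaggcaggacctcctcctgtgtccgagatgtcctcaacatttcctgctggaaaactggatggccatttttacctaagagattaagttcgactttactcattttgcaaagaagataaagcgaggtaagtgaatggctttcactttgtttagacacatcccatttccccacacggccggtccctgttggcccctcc
Myd88 (chr9:119340019-119340268, minus strand): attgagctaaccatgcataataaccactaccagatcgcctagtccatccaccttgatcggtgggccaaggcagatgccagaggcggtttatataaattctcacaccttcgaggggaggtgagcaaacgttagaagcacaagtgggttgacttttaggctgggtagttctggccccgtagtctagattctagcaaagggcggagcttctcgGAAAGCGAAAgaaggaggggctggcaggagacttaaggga
RefSeq gives Tlr1 a second start, whose window (chr5:64932700-64932949) held none of the motifs searched. The printed Tlr1 window held the PU.1 core from base -23 to -18 before the start, a match found in 23.3% of all 32851 promoter windows of that length. The Tlr2 window, whose gene rose with Tlr1, held none of the 3 letter patterns, and other forms of these sites were not searched. It does hold ggggaattccc, which the narrow NF-kB pattern cannot match. A contrast with Tlr3 in NF-kB sites therefore cannot be read from these matches. The Tlr3 window held the NF-kB letters from -211 to -202 (1.41% of all windows) and the Myd88 window the interferon element core from -40 to -31 (2.98% of all windows). Of the other motifs searched, TGANTCA (AP-1) matched none of these 4 windows, and TATAAA matched the Myd88 window alone, on both strands with overlap; 6.75% and 12.4% of all windows hold them. A match is a description of these letters and not evidence of a bound factor.

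Tlr1 and Tlr2 were lowest in host microglia, and both were higher in each donor-derived microglia group, by between 1.82-fold and 2.28-fold. TLR2 pairs with TLR1 to recognise triacylated bacterial lipopeptides, so these are the genes of 1 heterodimer. Tlr2 (chr3:83836272-83841767) was at 133, 162, 138 and 139 CPM in the 4 host libraries and at 345, 295, 355 and 313 CPM in monocyte-derived microglia. In HSC-derived microglia it was at 334, 300, 190 and 239 CPM. The ranges of host and donor-derived microglia did not overlap. The change was 2.28-fold in monocyte-derived microglia (log2 fold change 1.19, SE 0.154, adjusted p = 1.31e-07 by edgeR's quasi-likelihood test with Benjamini-Hochberg adjustment over 10597 genes). It was 1.92-fold in HSC-derived microglia (log2 fold change 0.94, SE 0.163, edgeR adjusted p = 2.74e-05).

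Tlr1 (chr5:64924679-64933563) followed the same order. It was at 40.1, 42.8, 38.3 and 42.9 CPM in host microglia, at 74.9, 102, 98.8 and 94.2 CPM in monocyte-derived microglia and at 79.3, 88.0, 61.5 and 50.9 CPM in HSC-derived microglia. Again no donor-derived library fell within the host range, and the 2 lowest values of donor-derived microglia came from the shallow HSC-derived libraries. The change was 2.25-fold in monocyte-derived microglia (log2 fold change 1.17, SE 0.148, edgeR adjusted p = 9.13e-08) and 1.82-fold in HSC-derived microglia (log2 fold change 0.87, SE 0.177, edgeR adjusted p = 0.000255). Without the 3 shallow libraries the HSC-derived changes were 1.03 for Tlr1 and 1.15 for Tlr2 on the log2 scale, both still called.

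Leptomeningeal macrophages had Tlr1 and Tlr2 at the level of donor-derived microglia. Tlr2 was at 376, 323, 229 and 306 CPM in monocyte-derived and at 275 and 277 CPM in HSC-derived leptomeningeal libraries. Tlr1 was at 78.0, 75.8, 71.4 and 66.0 CPM and at 68.7 and 69.3 CPM in the same libraries. For both genes the neighbouring groups above host microglia overlapped in their libraries. Monocyte-derived leptomeningeal macrophages differed from microglia of the same origin by -0.34 (95% interval -0.64 to -0.05, edgeR adjusted p = 0.0652) for Tlr1 on the log2 scale. That change was called without the 3 shallow libraries (-0.35, edgeR adjusted p = 0.0199) and in 2 other alternatives.

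**Figure D1:**
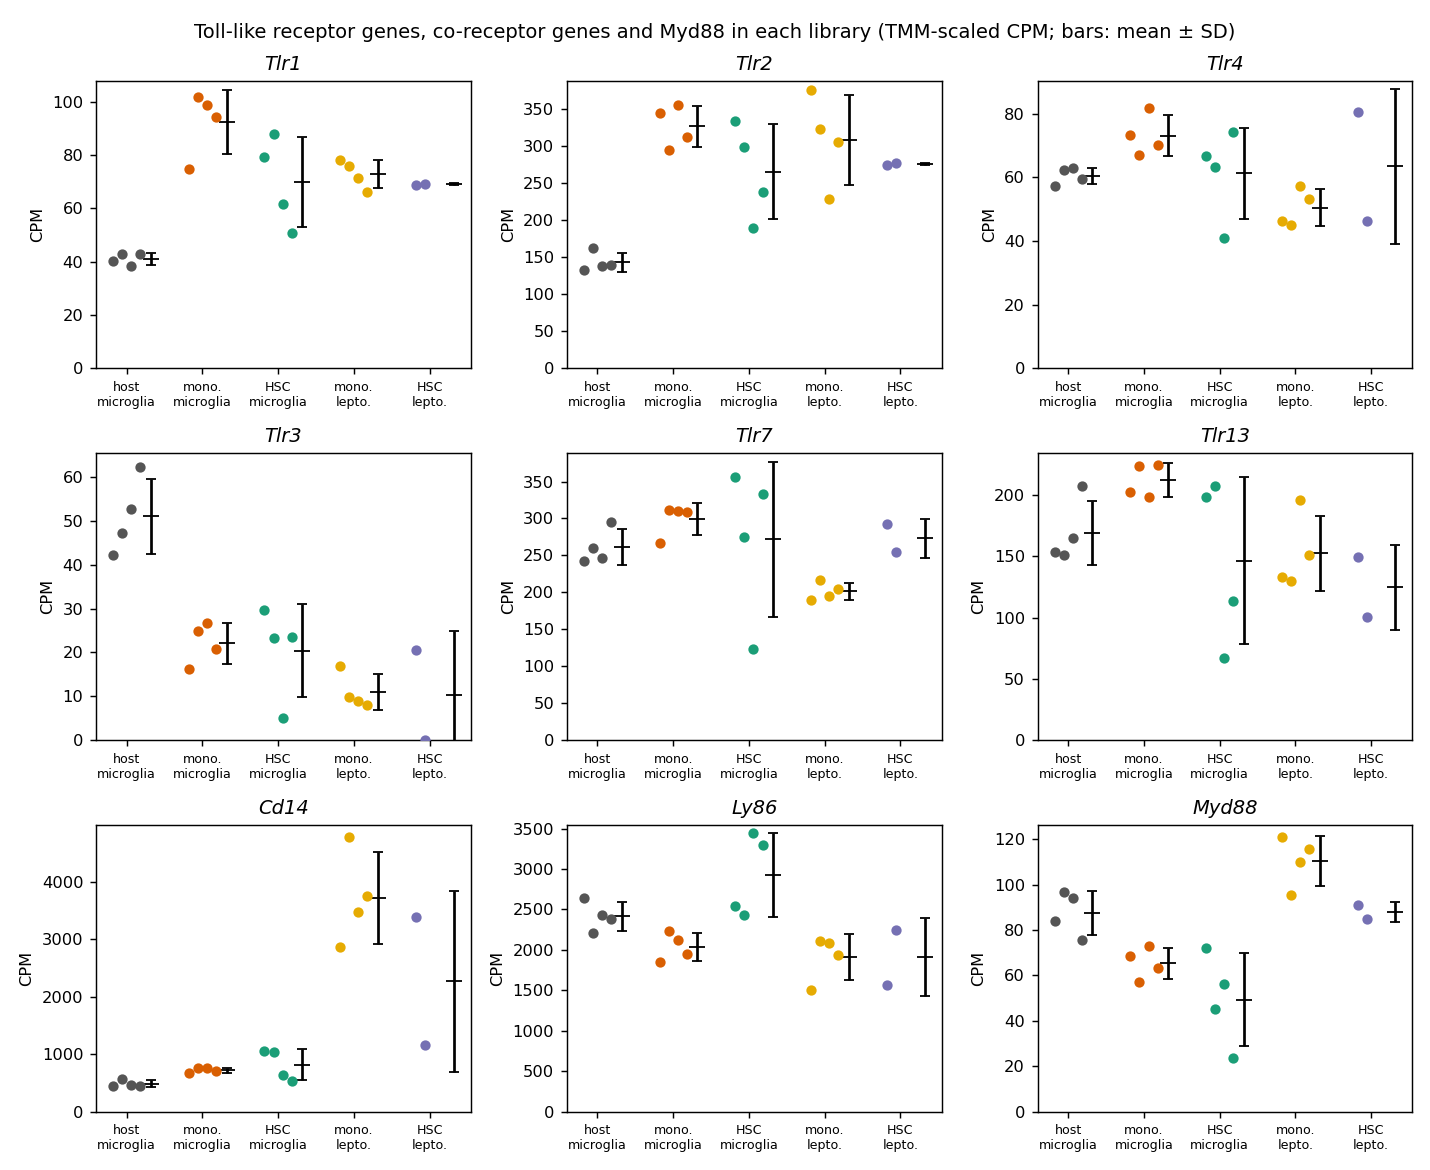
CPM of the 9 genes in each of the 18 libraries (points), by group on the x axis, with the mean and SD of the group beside them; mono. stands for monocyte-derived, HSC for HSC-derived and lepto. for leptomeningeal macrophages, and each y axis starts at 0. Host microglia sit below every other library for Tlr1 and Tlr2 and above every other library for Tlr3, while Cd14 reaches 4782 CPM in leptomeningeal macrophages.

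The double-stranded RNA receptor gene Tlr3 (chr8:45395665-45411080) went the other way and was highest in host microglia. It was at 42.2, 47.3, 52.7 and 62.3 CPM in host microglia, at 16.1, 24.8, 26.6 and 20.8 CPM in monocyte-derived microglia and at 29.8, 23.4, 5.12 and 23.5 CPM in HSC-derived microglia. Every host library was above every donor-derived library. Tlr3 was 2.33-fold lower in monocyte-derived microglia (log2 fold change -1.22, SE 0.220, edgeR adjusted p = 3.95e-05) and 2.17-fold lower in HSC-derived microglia (log2 fold change -1.12, SE 0.281, edgeR adjusted p = 0.00244). Without the 3 shallow libraries the latter change was -0.94 (edgeR adjusted p = 0.00677).

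In monocyte-derived leptomeningeal macrophages Tlr3 was lower still. The 4 libraries were at 16.9, 9.88, 8.93 and 8.08 CPM, which is 1.99-fold below monocyte-derived microglia (log2 fold change -0.99, SE 0.286, edgeR adjusted p = 0.00643), with 1 library of each group overlapping. The HSC-derived libraries were at 20.6 and 0 CPM. The second had no Tlr3 molecule at a depth where 1 count is 7.70 CPM after TMM scaling, so that library cannot place the gene. The HSC-derived change from microglia was -0.51 (95% interval -1.60 to 0.58) and was not called (edgeR adjusted p = 0.640). Tlr3 rests on few molecules in all donor-derived groups, with 45 counts over the 4 HSC-derived microglia libraries and 59 over the 4 monocyte-derived leptomeningeal ones. An antisense gene, Gm45542, overlaps Tlr3, and whether counting used strand is not given in the sources used here.

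Because Tlr2 and Tlr3 moved in opposite directions, their ratio within a library, which needs no scaling, separated host from donor-derived cells. There were between 2.24 and 3.42 Tlr2 molecules per Tlr3 molecule in host microglia, between 11.9 and 21.4 in monocyte-derived microglia and between 10.2 and 37.0 in HSC-derived microglia. Monocyte-derived leptomeningeal macrophages had between 22.3 and 37.9. These ratios are a description and were formed after the values of both genes had been seen.

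The lipopolysaccharide receptor gene Tlr4 (chr4:66827584-66930284) varied least among the groups, with a ratio of 1.45 between its highest and lowest group mean. It was between 57.3 and 62.8 CPM in host, between 67.0 and 82.0 CPM in monocyte-derived and between 41.0 and 74.4 CPM in HSC-derived microglia. Against host it was not called in monocyte-derived (log2 fold change 0.27, edgeR adjusted p = 0.162) or HSC-derived microglia (0.06, edgeR adjusted p = 0.849). In monocyte-derived leptomeningeal macrophages it was at 46.4, 45.0, 57.4 and 53.2 CPM, below all 4 monocyte-derived microglia libraries at 73.2, 67.0, 82.0 and 70.2 CPM. That difference was 1.44-fold (log2 fold change -0.53, SE 0.151, edgeR adjusted p = 0.00632). The HSC-derived leptomeningeal libraries were apart from each other, at 80.7 and 46.2 CPM. Among 902 stretches of 50 bases at the 3′ ends of Tlr4 transcripts, 1 also occurs in Olfr804, and the other analysed genes had no shared stretch in that window.

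The endosomal single-stranded RNA receptor gene Tlr7 (chrX:167304929-167330558) was lowest in monocyte-derived leptomeningeal macrophages. It was at 190, 216, 195 and 205 CPM there and at 267, 312, 310 and 308 CPM in monocyte-derived microglia, with no overlap. The difference was 1.49-fold (log2 fold change -0.57, SE 0.166, edgeR adjusted p = 0.00641). Host microglia lay between, from 243 to 295 CPM, and HSC-derived microglia were at 356, 275, 123 and 333 CPM. Against host the log2 changes were 0.20 in monocyte-derived and 0.10 in HSC-derived microglia and were not called (edgeR adjusted p = 0.391 and 0.706). HSC-derived leptomeningeal macrophages were at 292 and 254 CPM, above all monocyte-derived ones, but the difference between origins was not called (log2 fold change -0.47, 95% interval -0.93 to -0.01, edgeR adjusted p = 0.449).

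Tlr13 (chrX:106143204-106160493) encodes the bacterial ribosomal RNA receptor of mice. It was at 134, 130, 196 and 151 CPM in monocyte-derived leptomeningeal macrophages and at 202, 224, 198 and 225 CPM in microglia of that origin, and the groups did not overlap. The change of -0.47 on the log2 scale (SE 0.186) missed the threshold (edgeR adjusted p = 0.0508) and passed it without the 3 shallow libraries (edgeR adjusted p = 0.00167) and in 3 other alternatives. Host microglia were between 151 and 208 CPM. HSC-derived libraries were at 198, 208, 66.6 and 114 CPM in microglia and at 149 and 100 CPM in the leptomeninges, where Tlr13 had its lowest group mean. Against host the log2 changes were 0.33 in monocyte-derived (edgeR adjusted p = 0.190) and -0.07 in HSC-derived microglia (95% interval -0.49 to 0.34), and neither was called. Tlr7 and Tlr13 lie on the X chromosome. Xist, which is transcribed from the inactive X chromosome, was also lower in monocyte-derived leptomeningeal macrophages than in monocyte-derived microglia, by 1.78-fold. It was higher in monocyte-derived than in host microglia (log2 fold change 0.67, edgeR adjusted p = 0.00262), where neither Tlr7 nor Tlr13 was called. From HSC-derived microglia to HSC-derived leptomeningeal macrophages the log2 change of Xist was -0.05 and was not called. The part of Xist in these results was not tested.

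Cd14 (chr18:36725067-36726798) had the widest range of the 9 genes, with a ratio of 7.71 between its highest and lowest group mean. CD14 hands lipopolysaccharide to TLR4 and MD-2 and also serves TLR2. It was at 451, 574, 464 and 444 CPM in host microglia, at 666, 757, 764 and 710 CPM in monocyte-derived microglia and at 1058, 1047, 646 and 536 CPM in HSC-derived microglia. In leptomeningeal macrophages it was at 2874, 4782, 3476 and 3765 CPM in the monocyte-derived and at 3387 and 1155 CPM in the HSC-derived libraries. All 6 leptomeningeal libraries were above all 12 microglia libraries, and the lowest of them was the shallowest library of the series.

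Cd14 was 5.14-fold higher in monocyte-derived leptomeningeal macrophages than in microglia of that origin (log2 fold change 2.36, SE 0.253, edgeR adjusted p = 4.61e-08). In the HSC-derived pair it was 2.77-fold higher (log2 fold change 1.47, SE 0.291, edgeR adjusted p = 0.00111). That call rests on HSC-derived leptomeningeal replicate 1. Without it the change was 0.39 (edgeR adjusted p = 0.498), and with only the compared groups in the fit it was 1.49 (edgeR adjusted p = 0.0919). Since Tlr4 did not rise with Cd14, there were between 60.6 and 106 Cd14 molecules per Tlr4 molecule in monocyte-derived leptomeningeal macrophages, against between 9.10 and 11.3 in microglia of that origin.

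Among microglia, Cd14 was 1.72-fold higher in HSC-derived than in host cells (log2 fold change 0.78, SE 0.247, edgeR adjusted p = 0.0181). The call was lost without HSC-derived replicate 1 (0.64, edgeR adjusted p = 0.0787) or replicate 2 (0.65, edgeR adjusted p = 0.0731), and without the 3 shallow libraries the change was 1.12 (edgeR adjusted p = 1.40e-07). In monocyte-derived microglia the 4 libraries were all above the host libraries, but the change of 0.58 (SE 0.244) did not pass (edgeR adjusted p = 0.0736). It did pass without the 3 shallow libraries (0.60, edgeR adjusted p = 0.000162) and with only the 2 compared groups in the fit (0.62, edgeR adjusted p = 6.51e-08). The common fit shares its estimate of spread with HSC-derived libraries whose Cd14 values lie far apart.

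Summed markers of some other cells were also higher in leptomeningeal libraries. The 7 neutrophil markers in the table summed to between 1062 and 2313 CPM in monocyte-derived leptomeningeal macrophages, against between 119 and 185 CPM in monocyte-derived microglia. HSC-derived leptomeningeal macrophages, at between 49.8 and 100 CPM, overlapped HSC-derived microglia, at between 62.6 and 126 CPM. Most of the sum in microglia was Csf3r. Its mean was 123.8 CPM of a mean sum of 147.6 CPM in monocyte-derived microglia and 92.39 of 93.67 CPM in HSC-derived microglia. The 9 monocyte markers in the table summed to between 858 and 1123 CPM in monocyte-derived and between 393 and 826 CPM in HSC-derived leptomeningeal macrophages, against between 70.3 and 168 CPM in donor-derived microglia and between 12.7 and 15.0 CPM in host microglia. None of these markers was at 0 over the monocyte-derived leptomeningeal libraries, while Camp, Ltf, Mmp8, Chil3 and F10 were at 0 in the HSC-derived ones. T and NK cell markers summed to between 406 and 794 CPM and between 239 and 443 CPM. In HSC-derived leptomeningeal macrophages Csf3r had a mean of 57.85 CPM of a mean neutrophil sum of 74.97 CPM. S100a9 had a mean of 11.55 CPM there, from 3 counts, and 0 in HSC-derived microglia. The neutrophil sums of the HSC-derived pair were thus mostly Csf3r. The part of the other cells in the Cd14 results was not tested.

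**Figure D2:**
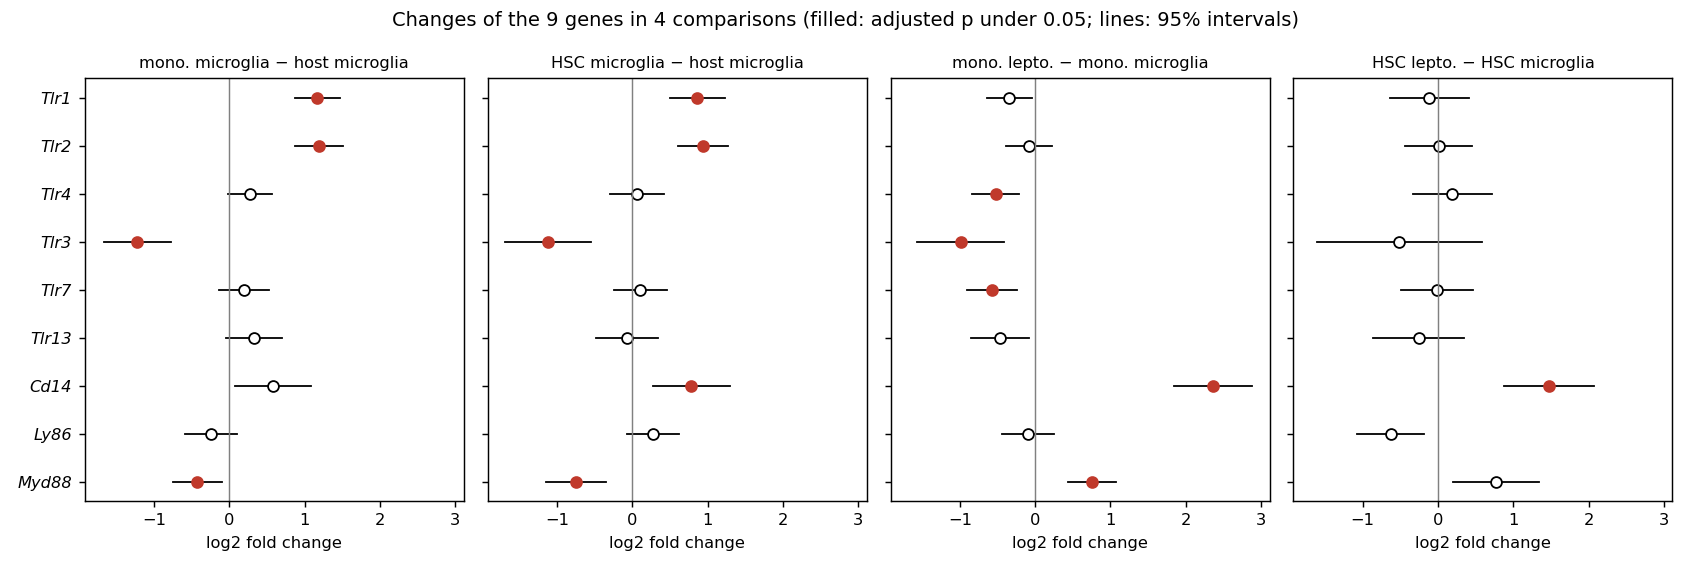
Log2 fold changes of the 9 genes with their 95% intervals in 4 comparisons, filled where the adjusted p was under 0.05. Tlr1, Tlr2 and Tlr3 differ from host in both donor-derived microglia groups, and Cd14 has the widest displacement, at 2.36, in monocyte-derived leptomeningeal macrophages.

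Ly86 (chr13:37345208-37419036) encodes MD-1, the partner of the TLR4-like receptor RP105, which is the product of Cd180. It was abundant throughout. Host microglia were at 2639, 2210, 2435 and 2383 CPM, monocyte-derived microglia at 1853, 2230, 2118 and 1946 CPM and HSC-derived microglia at 2538, 2428, 3448 and 3299 CPM. The 2 highest values belong to the shallow HSC-derived libraries. Leptomeningeal libraries were at 1508, 2111, 2090, 1940, 1567 and 2249 CPM, the last pair being HSC-derived.

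No change of Ly86 was called in any of the 7 comparisons. Monocyte-derived microglia were below HSC-derived microglia without overlap, by -0.52 on the log2 scale (95% interval -0.87 to -0.17, edgeR adjusted p = 0.108), but that difference was -0.27 (edgeR adjusted p = 0.602) without the 3 shallow libraries. HSC-derived leptomeningeal macrophages were below HSC-derived microglia by -0.63 (edgeR adjusted p = 0.0661), which was called in 6 of 13 alternatives, among them the fit without the 3 shallow libraries (-0.66, edgeR adjusted p = 0.0251). Its partner Cd180 did change, being lower in monocyte-derived microglia (log2 fold change -0.64, edgeR adjusted p = 0.000283) and in HSC-derived microglia (-0.54, edgeR adjusted p = 0.00494) than in host microglia. There were between 11.4 and 14.4 Ly86 molecules per Cd180 molecule in host and between 15.2 and 33.6 in donor-derived microglia.

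The adaptor gene Myd88 (chr9:119335934-119341411) was lowest in donor-derived microglia and highest in monocyte-derived leptomeningeal macrophages. It was at 83.8, 96.9, 94.1 and 75.7 CPM in host microglia, at 68.6, 57.1, 72.9 and 63.0 CPM in monocyte-derived microglia and at 72.3, 45.4, 56.4 and 23.5 CPM in HSC-derived microglia. All host libraries were above all donor-derived microglia libraries. Myd88 was 1.68-fold lower in HSC-derived microglia (log2 fold change -0.75, SE 0.196, edgeR adjusted p = 0.00348). In monocyte-derived microglia it was 1.34-fold lower (log2 fold change -0.42, SE 0.158, edgeR adjusted p = 0.0391). That call was lost when any of 6 single libraries was left out, namely host replicates 1, 2 or 3 or monocyte-derived replicates 1, 2 or 4, with changes from -0.36 to -0.45 and edgeR adjusted p from 0.0662 to 0.137.

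Monocyte-derived leptomeningeal libraries had Myd88 at 121, 95.5, 110 and 116 CPM, all above microglia of that origin. The change was 1.69-fold (log2 fold change 0.76, SE 0.159, edgeR adjusted p = 0.000277). The HSC-derived leptomeningeal libraries, at 91.0 and 84.7 CPM, lay within the host range and above HSC-derived microglia, with a change of 0.77 (95% interval 0.20 to 1.34) that was not called (edgeR adjusted p = 0.0802). Myd88 overlaps Acaa1a on the opposite strand and Slc22a14 on its own strand. Acaa1a was not called in any comparison, and Slc22a14 is not used here.

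Read as counts, monocyte-derived against host microglia gave 2 of 9 genes higher (Tlr1, Tlr2), where 15.1% of all tested genes were called higher, and 2 lower (Tlr3, Myd88), where 15.1% of all were called lower. Those 4 calls became 6 without the 3 shallow libraries, which added Cd14 and Tlr13. With only the 2 compared groups in the fit all 9 were called, adding Cd14, Tlr4 (0.31), Tlr7 (0.23) and Tlr13 (0.36) as higher and Ly86 (-0.21) as lower. The HSC-derived comparison, which shares the host libraries, gave 3 higher (Tlr1, Tlr2, Cd14) beside 16.3% of all genes and 2 lower (Tlr3, Myd88) beside 13.1%. Monocyte-derived leptomeningeal macrophages against microglia gave 2 higher (Cd14, Myd88) beside 19.0% of all genes and 3 lower (Tlr3, Tlr4, Tlr7) beside 16.3%. The HSC-derived counterpart gave 1 higher (Cd14) beside 5.75% and 0 lower beside 3.97%. With 9 genes, these shares are not far from the background. The median log2 change of the 9 genes was 0.27, 0.10, -0.34 and -0.01 in these 4 comparisons in turn, and that of all tested genes 0.01, 0.00, -0.04 and -0.06.

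Monocyte-derived and HSC-derived cells of the same compartment were not told apart by these genes. In microglia, 0 of 9 were called by edgeR's quasi-likelihood test (background 0.123% higher and 1.76% lower), with 1 at an unadjusted p under 0.05, Ly86, which DESeq2 called. The log2 differences, monocyte-derived minus HSC-derived, ran from -0.52 to 0.40, and their 95% intervals reached from -0.87 to 0.82, so 1.5-fold differences in either direction are not excluded for some genes. In leptomeningeal macrophages 0 of 9 were called by edgeR (background 0.160% higher and 0.142% lower). There, 3 had an unadjusted p under 0.05 (Tlr4, Tlr7 and Cd14), and DESeq2 called 0 of the 5 it tested. With 2 HSC-derived libraries the intervals reached from -1.70 to 1.32.

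The question of whether the step from microglia to leptomeninges differed between origins was tested as an interaction. Again 0 of 9 genes were called by edgeR (background 0.0566% higher and 0% lower), 2 had an unadjusted p under 0.05, and DESeq2 called 0 of 5. For Cd14 the difference of the steps was 0.89 (95% interval 0.09 to 1.70, edgeR adjusted p = 0.576). For Tlr4 it was -0.71 (95% interval -1.33 to -0.10, edgeR adjusted p = 0.544). Both depend on HSC-derived leptomeningeal replicate 1. Without it the Tlr4 value was -0.001 and the Cd14 interaction was called (1.96, edgeR adjusted p = 0.0160), in a fit that leaves the shallowest library alone in its group.

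The other genes of the pathway were described from 7 lists holding 81 genes, of which 70 were tested. Among the co-receptors and trafficking factors, 3 of 10 were higher and 1 was lower in monocyte-derived than in host microglia (15.1% and 15.1% of all genes). In HSC-derived microglia 3 were higher and 3 lower (16.3% and 13.1% of all genes). Ly96, the gene for MD-2 that completes the lipopolysaccharide receptor with TLR4, was at 15.0, 11.8, 11.6 and 24.8 CPM in host, at 35.2, 45.5, 45.5 and 31.9 CPM in monocyte-derived and at 52.4, 56.3, 56.4 and 90.0 CPM in HSC-derived microglia. All donor-derived microglia libraries were above the host ones, with changes of 1.38 (edgeR adjusted p = 1.64e-05) and 2.00 (edgeR adjusted p = 3.06e-07). Cd36, a scavenger receptor that serves TLR2 dimers, had 1 count in all 4 host libraries together, 191 counts in monocyte-derived and 92 counts in HSC-derived microglia, and was called higher in both (edgeR adjusted p = 1.48e-13 and 1.46e-13). The third gene higher in both was Cnpy4 (0.92 and 1.23, edgeR adjusted p = 0.000441 and 0.000163). Those called lower were Cd180 in both and Slc15a4 (-0.65, edgeR adjusted p = 0.00202) and Slc46a3 (-0.56, edgeR adjusted p = 0.0224) in HSC-derived microglia. Ly96 was lower in monocyte-derived leptomeningeal macrophages than in microglia (-0.95, edgeR adjusted p = 0.00178), at 29.5, 13.2, 21.7 and 15.5 CPM, while Cd14 was higher there.

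Unc93b1, whose product takes the endosomal receptors from the endoplasmic reticulum to endosomes, did not pass the test in either comparison with host microglia. It was lower in monocyte-derived leptomeningeal macrophages than in microglia (-0.65, SE 0.153, edgeR adjusted p = 0.000900), as Tlr3 and Tlr7 were. Its libraries were at 495, 365, 461 and 383 CPM there and at 583, 682, 743 and 675 CPM in monocyte-derived microglia, without overlap.

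Of the other Toll-like receptors, Tlr6 and Tlr12 could be tested. Tlr12, an endosomal receptor known for binding profilin of protozoa, was at 61.7, 57.1, 65.9 and 59.9 CPM in monocyte-derived microglia and at 19.7, 12.1, 28.7 and 22.2 CPM in leptomeningeal macrophages of that origin (log2 fold change -1.51, SE 0.185, edgeR adjusted p = 5.61e-08). It was lower in the HSC-derived pair too (-1.43, SE 0.397, edgeR adjusted p = 0.0154). Tlr6, the second partner of TLR2, was lower in HSC-derived than in host microglia (-0.85, edgeR adjusted p = 0.0222) and at -0.06 in monocyte-derived microglia, so it did not rise with Tlr2 and Tlr1. Tlr8 had no count in host microglia and at most 7 counts in any library, and was not tested.

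**Figure D3:**
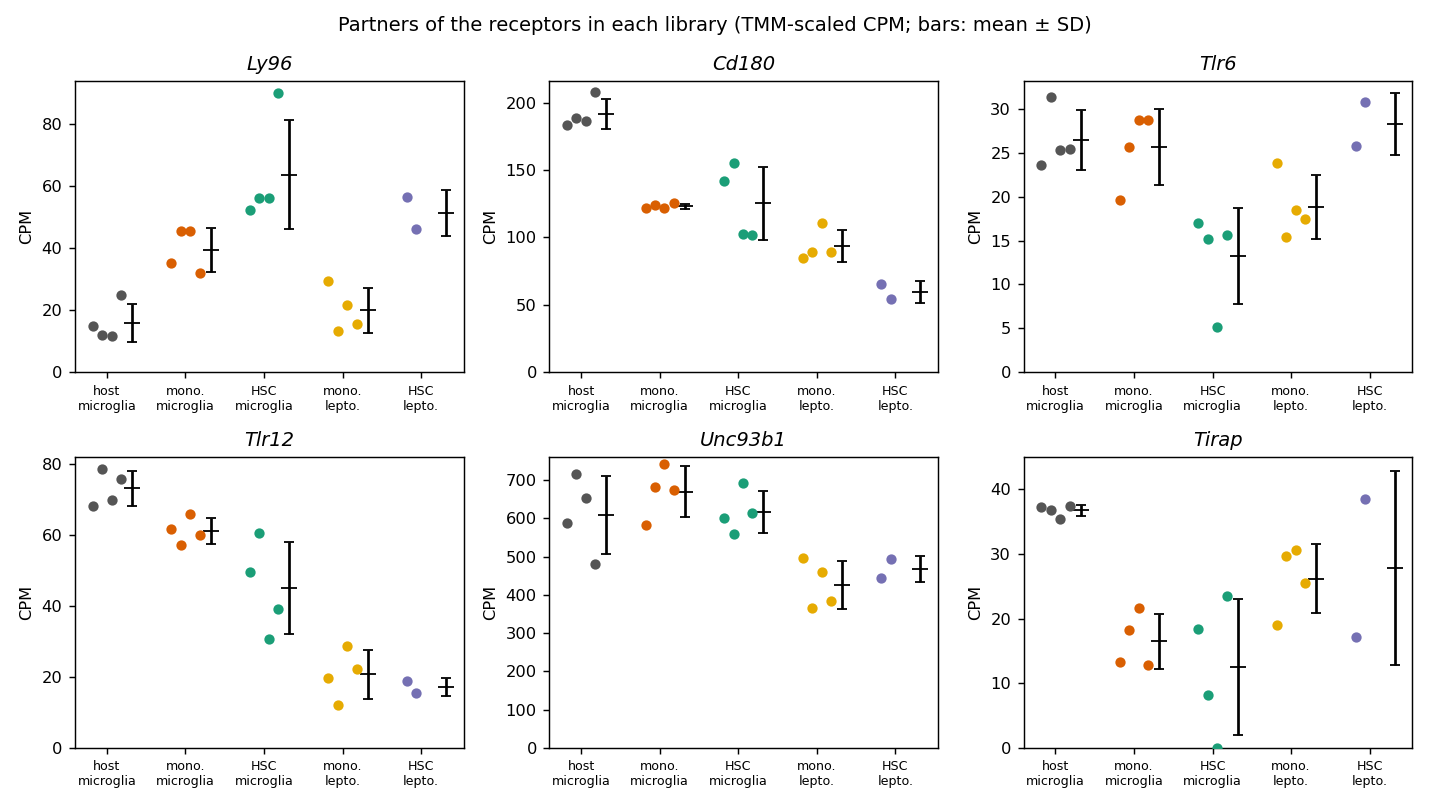
CPM of Ly96, Cd180, Tlr6, Tlr12, Unc93b1 and Tirap in each library (points), with group means and SD, in the same groups and with y axes from 0. Ly96 is above the host range in all donor-derived microglia, Cd180 is below it, and Tlr12 is lowest in the leptomeninges.

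Among the adaptors, the bridging adaptor gene Tirap was lower in both donor-derived microglia groups, as Myd88 was. It was at 37.2, 36.8, 35.5 and 37.5 CPM in host microglia, at 13.3, 18.2, 21.7 and 12.8 CPM in monocyte-derived and at 18.4, 8.25, 0 and 23.5 CPM in HSC-derived microglia. The changes were -1.16 (edgeR adjusted p = 0.000183) and -1.46 (edgeR adjusted p = 0.000729). Ticam1, the adaptor gene of TLR3, was lower in monocyte-derived microglia (-0.86, edgeR adjusted p = 0.00847). Tirap and Ticam1 were higher in monocyte-derived leptomeningeal macrophages than in microglia of that origin (0.66 and 0.92, edgeR adjusted p = 0.0386 and 0.00594), as Myd88 was. Unlike Myd88, Tirap stayed below the host range there, at between 19.0 and 30.6 CPM.

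Of 17 signalling kinases and ligases, 1 was higher and 1 lower than in host in monocyte-derived microglia, where 15.1% of all genes were called in each direction, namely Irak1 (0.58, edgeR adjusted p = 0.00174) and Irak2 (-0.47, edgeR adjusted p = 0.0323). In HSC-derived microglia 0 were higher and 2 lower (16.3% and 13.1% of all genes), Tab2 (-0.65, edgeR adjusted p = 0.00351) and Chuk (-0.59, edgeR adjusted p = 0.0330). Irak4, the kinase that MyD88 recruits first, was not called in any comparison. Of the 10 transcription factor genes, 1 was higher and 1 lower than in host in monocyte-derived microglia (15.1% and 15.1% of all genes). Against host, 1 was higher and 5 were lower in HSC-derived microglia (16.3% and 13.1% of all genes). From microglia to leptomeninges 5 were higher and 1 lower in monocyte-derived cells (19.0% and 16.3% of all genes). In HSC-derived cells 2 were higher and 1 lower (5.75% and 3.97% of all genes). Irf5, which acts below MyD88, was lower in monocyte-derived (-0.53, edgeR adjusted p = 0.00250) and HSC-derived microglia (-0.76, edgeR adjusted p = 0.000108). Irf7, known for driving type I interferon genes, was higher in HSC-derived than in host microglia (1.17, edgeR adjusted p = 0.0101). Its HSC-derived microglia libraries were at 55.3, 103, 169 and 129 CPM, with replicate 1 inside the host range of 36.2 to 55.8 CPM. The highest values came from the shallow replicates 3 and 4. Irf7 was also higher in monocyte-derived leptomeningeal macrophages than in microglia of that origin (2.03, edgeR adjusted p = 1.10e-05).

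The genes on the list of those that TLR ligands induce differed between compartments, which cannot be told apart from the isolation step. In monocyte-derived leptomeningeal macrophages, 15 of 18 tested were higher than in microglia and 1, Cd86, was lower (-0.61, edgeR adjusted p = 0.00282), with a median of 1.72, where 19.0% of all genes were called higher and 16.3% lower and their median was -0.04. Marcksl1 (3.78, edgeR adjusted p = 4.21e-13), Il10 (3.38, edgeR adjusted p = 1.61e-11) and Cxcl1 (3.84, edgeR adjusted p = 2.55e-10) had the smallest p. In the HSC-derived pair 7 of 18 were higher and 0 lower, beside 5.75% and 3.97% of all genes. Of 10 tested negative regulators, 6 were higher and 0 lower in the monocyte-derived pair (19.0% and 16.3% of all genes). In the HSC-derived pair, 5 of them were higher and 0 lower (5.75% and 3.97% of all genes). Among those higher in both pairs were Zc3h12a (1.98 and 1.63), Atf3 (2.46 and 1.90) and Dusp1 (2.90 and 2.01), with edgeR adjusted p from 2.83e-11 to 0.000300. Of 8 tested monocyte markers, 8 were called higher in the monocyte-derived and 4 in the HSC-derived pair (19.0% and 5.75% of all genes). Of 6 tested neutrophil markers, 5 and 0 were called higher, beside the same shares. The part of those cells was not tested.

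Against host microglia, members of the list were called in both directions. In monocyte-derived microglia 8 of 18 induced genes were higher and 4 lower (15.1% and 15.1% of all genes), and in HSC-derived microglia 10 were higher and 3 lower (16.3% and 13.1% of all genes). Il1b, for the inflammatory cytokine IL-1β, was at 30.8, 25.9, 19.3 and 22.8 CPM in host microglia, at 155, 214, 269 and 253 CPM in monocyte-derived and at 419, 666, 154 and 137 CPM in HSC-derived microglia, without overlap. Cxcl2 and Ptgs2 were also above the host range in all donor-derived microglia libraries. Their means were 23.4 and 2.80 CPM in host, 196.5 and 29.1 CPM in monocyte-derived and 250.8 and 44.3 CPM in HSC-derived microglia. Tnf was lower in both donor-derived groups (-0.86 and -0.75, edgeR adjusted p = 0.00551 and 0.0399), as were Il6 (-1.52 and -1.48, edgeR adjusted p = 0.000339 and 0.00905) and Il1a (-1.31 and -1.40, edgeR adjusted p = 0.00130 and 0.00782). Host microglia also carried choroid plexus epithelium markers at summed levels between 2079 and 3519 CPM, against at most 482 CPM in the other groups, and their part in the comparisons with host was not tested.

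Of all genes with a mean of at least 20 CPM, those whose levels ran most like Cd14 over the 18 libraries were Fos (Pearson r = 0.979), Dusp1 (0.977) and Tubb2a (0.975), out of 6203 compared. Fos, an immediate early gene, was at 404, 472, 515 and 320 CPM in host microglia and at 2538, 3416, 3783 and 3046 CPM in monocyte-derived leptomeningeal macrophages. Within HSC-derived microglia, Fos was at 744 and 794 CPM in replicates 1 and 2 and at 379 and 325 CPM in replicates 3 and 4, and Cd14 split the same libraries, which are the deep and the shallow ones. In HSC-derived leptomeningeal macrophages Fos was at 2678 and 1232 CPM, again with the deep replicate 1 above the shallow replicate 2. Fos was picked for this likeness, so its values are a description and no support for the Cd14 results.

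**Figure D4:**
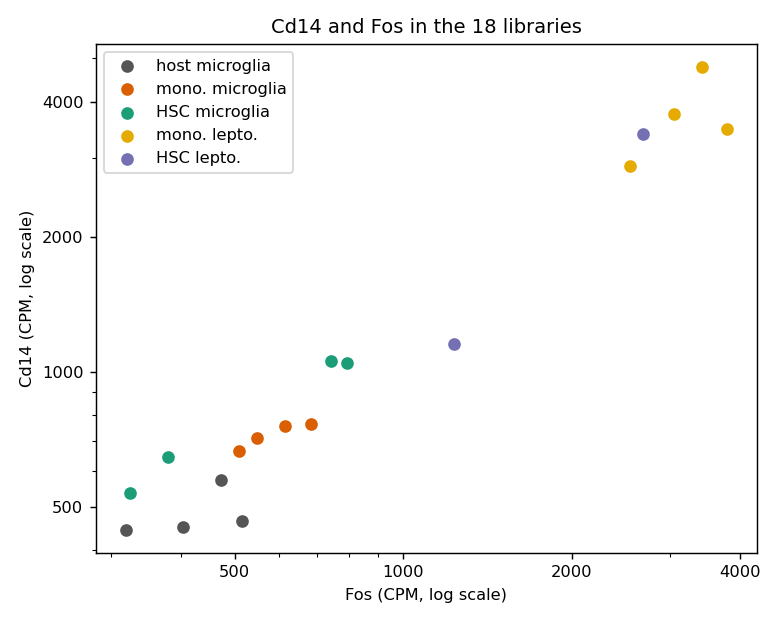
Cd14 against Fos CPM in the 18 libraries, both axes on a log scale, coloured by group. Leptomeningeal libraries lie at the upper right, with the shallow HSC-derived library at 1232 CPM of Fos and 1155 CPM of Cd14 between them and the microglia.

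For Tlr3 the closest genes were Cds1 (r = 0.968), Sppl3 (0.952) and Heatr5a (0.946), and Cds1 fell from a mean of 86.2 CPM in host to 37.1 CPM in monocyte-derived microglia. Tlr2 ran with Vcam1 (0.929), Cmah (0.924) and Ms4a14 (0.922), and Tlr1 with Nfxl1 (0.921), Nlrc4 (0.921) and Myo5a (0.905). Myd88 ran with C5ar1 (0.908), Bin3 (0.897) and Rela (0.893). Tlr4 and Tlr7 had weaker nearest genes, Rnf8 (0.815) and Mis12 (0.856). Within the 9 genes the closest pairs were Tlr1 with Tlr2 (0.890) and Tlr4 with Tlr7 (0.790). All of these correlations are descriptions over 18 libraries that share depth, scaling and the group differences already given.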

How the data were processed

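The authors deposited UMI counts (unique molecular identifiers, from bulk MARS-seq of transcript 3′ ends) per gene as 1 table, and its unscaled whole-number columns were used. The build is mm10 per the submitters' processing notes; the aligner or counter is not given in the sources used here. Columns were matched to 18 samples by name, and 2 libraries that matched no described sample were not used. No 2 libraries were identical (0 pairs).

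Genes were filtered with filterByExpr (10597 of 13043 kept), scaled by TMM and fitted with edgeR 4.0.16 (R 4.3.3, limma 3.58.1) as a robust quasi-likelihood model, 1 coefficient per group over all 18 libraries (common biological coefficient of variation 0.161). The 7 comparisons used two-sided tests, adjusted by Benjamini-Hochberg across the 10597 genes, and a gene with an adjusted p under 0.05 is called. The step was tested on simulated data. CPM are TMM-scaled, and molecule ratios use counts. DESeq2 1.42.0 was an alternative, beside its size factors, no filter, Apoe and ribosomal protein genes left out, only the compared groups, no shallow libraries, a replicate block and each library left out.

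Every listed gene was tested in each comparison, and values are printed for those with an unadjusted p under 0.05 and for some others. Of each pathway list, up to 3 called genes with the smallest p and Tlr6, Tlr8, Ly96, Cd180, Unc93b1, Irak4, Irf5 and Irf7 were to be named. Il1b, Cxcl2, Ptgs2, Tnf, Il6, Il1a, Cd86, Xist and Acaa1a were named outside that rule or after their values were seen. The 3 genes most like each called gene (log2 CPM, prior count 2) were named, or the first for Tlr4 and Tlr7. The genes and lists were chosen with earlier results of these data known. Correlations between the deviations of same-numbered libraries of different groups ran from -0.321 to 0.323, with 1 of 32 above 0.1. The extremes involve HSC-derived leptomeningeal macrophages, whose 2 libraries deviate as mirror images by construction. Between monocyte-derived microglia and leptomeningeal macrophages they were small but positive (0.029, 0.0143, 0.0575 and 0.0521 for replicates 1, 2, 3 and 4). Numbers were not taken to pair samples, and a pairing is not excluded. Gene positions are from GENCODE vM21 (GRCm38). Depths limit the shallow libraries to 3 counts per 19.4, 11.3 and 9.44 CPM before TMM scaling, and intervals of fold changes are 95%.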

Additional observations from a re-analysis of the deposited data

Results flagged for a closer look

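Within the groups of 4 libraries, 36 sets of values were examined for a library far from the others, and 2 stood apart by Dixon's test, where chance gives about 1 in 20. Tlr7 in monocyte-derived microglia replicate 1 was at 266.9 CPM, below the other 3 libraries, with a gap of 0.912 of the group's range. Cd14 in host microglia replicate 2 was at 573.9 CPM, above the other 3, with a gap of 0.842 of the range. Neither library was left out of any value above. No difference between origins in the step from microglia to leptomeninges was called for the 9 genes.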

How the results depend on the processing

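Of 63 pairs of a gene and a comparison, 15 were called, and over 955 re-fits 10 lost a call and 26 gained one. The sign changed in 48 re-fits of 17 pairs, none of them called in either fit. Counts that moved are given here, and the cause was not tested. With only the compared groups in the fit, all 9 genes were called in monocyte-derived against host microglia, 0 in HSC-derived leptomeningeal macrophages against microglia, and the counts over all genes were 2068 for HSC-derived against host microglia, 20 and 16 between origins in microglia and leptomeninges, 205 for the HSC-derived compartments and 1 for the interaction. DESeq2 called 1 gene between origins in microglia and 2 between HSC-derived compartments, and over all genes 535, 78 and 49 between origins in microglia, in leptomeninges and for the interaction, against 200, 32 and 6. Without Apoe and ribosomal protein genes these were 2 of the 9 genes between HSC-derived compartments and 93 of all genes between origins in microglia. Without the 3 shallow libraries 2 genes were called between HSC-derived compartments, and 50 and 72 of all genes between origins in microglia and leptomeninges.

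Leaving out each library in turn gave 0 to 1 of the 9 genes between origins in microglia (31 to 555 of all genes), 0 to 1 in leptomeninges (12 to 90 of all genes), 0 to 3 between HSC-derived compartments (366 to 1242 of all genes, the first without HSC-derived leptomeningeal replicate 1) and 0 to 1 for the interaction (0 to 40 of all genes). Tlr4 between origins in leptomeninges (-0.50) ran from -0.67 to 0.23, the latter without HSC-derived leptomeningeal replicate 1. There, the lone library left is assumed to vary like the other groups. With the replicate block, counts were 4, 5, 0, 0, 5, 1 and 0 of 9 genes in the 7 comparisons, no call differed, and the counts over all genes stayed within 1.5 times. Scaling moved the median of all genes by under 0.1 throughout.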
